A study of Rattus norvegicus with 151 samples.

Results

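The liver response to low doses of PPH was taken as 1 comparison: the livers of rats given 1, 10 or 100 mg/kg PPH, together 12 arrays, were set against 5 arrays of rats given the vehicle, corn oil, in the same set. The 17 arrays were chosen by the chemical, tissue and dose in their labels, out of 151 in the series and 81 from liver. PPH is propylene glycol phenyl ether, a glycol ether solvent that was a minor part of the mixture spilled into a river in West Virginia, whose main part was crude MCHM (methylcyclohexanemethanol). All animals were male Harlan Sprague-Dawley rats of 6 to 8 weeks, a strain that is not inbred, and each took its dose by oral gavage once a day on 5 days in a row. Each of the 3 low doses had 4 arrays, and their 3 group means were averaged with equal weight, so that low PPH below means the mean of the 3 dose groups. Beside them stood the PPH livers at 500 and 1000 mg/kg (4 arrays each), the livers at 1, 10 and 100 mg/kg MCHM and crude MCHM (12 arrays each) with their own corn oil vehicles (5 and 4 arrays), and the kidneys of the PPH set (12 low-dose and 5 vehicle arrays). The question such a comparison answers is which genes differ from vehicle across doses at or below 100 mg/kg, where a single dose has few animals.

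The liver clears foreign chemicals by first oxidising them and then attaching polar groups. Glutathione transferases attach glutathione, a small thiol, to reactive molecules, and Nqo1 (NAD(P)H quinone dehydrogenase) reduces quinones without forming radicals. Many of these genes are turned on by Nrf2, a transcription factor that is held in the cytoplasm until electrophiles or oxidants modify its anchor Keap1, and then binds antioxidant response elements. A second set is turned on by CAR and PXR, nuclear receptors for drugs, whose best known targets are cytochrome P450 genes. Genes of both sets are standard readouts of chemical exposure in rodent liver.

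The arrays were Affymetrix Rat Genome 230 2.0, and the values are log2 levels, so that a difference of 1 is a doubling and levels can be set against each other within a gene but not between genes. Of 14218 named genes, 11342 were above a low-value floor in at least 3 PPH liver arrays and were tested. The labels number the samples of a group without saying that each is a separate animal, so the p-values below measure only the spread between these samples, part of which may be technical. The hepatocyte markers fit the tissue: of 13 listed, all 12 on the array were tested, with a mean level per array of 13.02 to 13.23 in low PPH livers and 13.09 to 13.28 in vehicle livers. None of the 7 muscle markers passed the floor.

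In low PPH livers 8 genes rose and 0 fell at a limma adjusted p under 0.05, which is 0.0705% of the genes tested. They were Gstt3, Nqo1, Mif, Thyn1, Noc2l, Chpf2, Wdr18 and Abcb6, and their changes ran between 0.26 and 0.86 on the log2 scale. Gstt3, a theta-class glutathione transferase, changed most, at 1.82 times its vehicle level. Before adjustment 1260 genes were higher and 375 lower at p under 0.05, together 14.4% of the genes tested. In 44 genes (0.388%) every low PPH array was above every vehicle array, and in 3 genes (0.0265%) every low PPH array was below.

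The 300 bases around the annotated start of 3 of these genes are given here because Gstt3 and Nqo1 were the 2 of the 8 that were also higher at 1000 mg/kg than at the low doses, and because Mif lies close to Gstt3. All 3 come from RefSeq on the rat build GRCr8 and run 5′ to 3′ on the gene's strand, from 250 bases before the start to 50 bases after it. Gstt3 is chr20:12874368-12874667 on the plus strand, Mif is chr20:12790107-12790406 on the plus strand, and Nqo1 is chr19:52220218-52220517 on the minus strand. Capitals mark matches to TGACNNNGC, the core of the antioxidant response element, searched on both strands.
Gstt3: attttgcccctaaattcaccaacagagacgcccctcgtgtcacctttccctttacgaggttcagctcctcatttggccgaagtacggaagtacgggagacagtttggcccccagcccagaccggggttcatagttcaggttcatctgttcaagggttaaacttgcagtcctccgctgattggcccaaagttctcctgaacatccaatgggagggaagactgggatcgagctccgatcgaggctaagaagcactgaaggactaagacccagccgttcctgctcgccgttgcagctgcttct
Nqo1: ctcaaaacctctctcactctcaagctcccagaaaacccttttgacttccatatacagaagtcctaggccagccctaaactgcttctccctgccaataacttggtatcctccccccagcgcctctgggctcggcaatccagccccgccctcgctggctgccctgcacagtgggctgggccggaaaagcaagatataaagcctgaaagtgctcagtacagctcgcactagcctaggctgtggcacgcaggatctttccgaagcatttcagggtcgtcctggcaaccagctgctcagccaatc
Mif: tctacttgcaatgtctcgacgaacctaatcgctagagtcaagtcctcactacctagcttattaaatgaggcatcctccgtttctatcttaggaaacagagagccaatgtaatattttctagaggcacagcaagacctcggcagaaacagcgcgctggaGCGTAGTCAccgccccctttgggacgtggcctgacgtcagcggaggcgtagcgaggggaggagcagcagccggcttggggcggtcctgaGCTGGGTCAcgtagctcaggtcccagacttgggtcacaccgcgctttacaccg
The Mif window held 2 matches, both on the minus strand, at bases -92 to -84 and -3 to 6 counted from the start, with no base 0. The Gstt3 and Nqo1 windows held 0. Among the 8 genes, all of which had a window in the table, 2 had a match, the other being Chpf2, and 12.1% of the 33469 windows of this length had one. A match is a run of letters and not a binding site, and these windows say nothing of elements farther away.

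Gstt3 lay between 9.49 and 10.46 in the 12 low PPH livers, with a median of 9.96, against 8.94, 9.30, 9.23, 8.83 and 8.99 in the 5 vehicle livers. Every low PPH array stood above every vehicle array. The change was 0.86 ± 0.12 (SE, 95% interval 0.61 to 1.12, adjusted p = 0.00452).

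Nqo1 lay between 7.56 and 8.12 in low PPH livers, with a median of 7.82, against 6.85, 7.52, 7.27, 7.32 and 7.51 in vehicle livers. The groups did not overlap, although the lowest low PPH array and the highest vehicle array were close, and the vehicle array at 6.85 stood below its group. The change was 0.55 ± 0.10 (SE, 95% interval 0.34 to 0.76, adjusted p = 0.0306). Mif, macrophage migration inhibitory factor, a cytokine that is also a tautomerase and is made by hepatocytes as well as by immune cells, had 11.45 to 12.01 in low PPH livers with a median of 11.81, against 11.22, 11.47, 11.41, 11.24 and 11.33 in vehicle livers. Its groups met at their edges, with 11 of 12 low PPH arrays above all vehicle arrays. The change was 0.47 ± 0.08 (SE, adjusted p = 0.0306).

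Thyn1, a nuclear protein described in thymocytes, had 6.94 to 7.31 in low PPH livers (median 7.17), against 6.77, 6.71, 6.79, 6.58 and 6.89 in vehicle livers. Wdr18, a WD-repeat protein of ribosome assembly, had 7.54 to 7.74 (median 7.63) in low PPH livers, against 7.23, 7.29, 7.33, 7.44 and 7.44 in vehicle livers. Abcb6, a mitochondrial and lysosomal transporter linked to haem, had 8.70 to 8.91 (median 8.76) in low PPH livers, against 8.49, 8.51, 8.53, 8.53 and 8.56 in vehicle livers. In all 3 genes the groups did not overlap. Abcb6 had the tightest vehicle group of the 8, with an SD of 0.025 over 5 arrays. The changes were 0.39 ± 0.07 for Thyn1, 0.27 ± 0.05 for Wdr18 and 0.26 ± 0.05 for Abcb6 (SE, adjusted p = 0.0306 each).

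Noc2l, a nucleolar protein that binds histones and p53, had 6.55 to 7.07 (median 6.92) in low PPH livers, against 6.66, 6.36, 6.55, 6.35 and 6.58 in vehicle livers. Chpf2, an enzyme of chondroitin chain extension, had 7.44 to 7.82 (median 7.72) in low PPH livers, against 7.34, 7.41, 7.55, 7.36 and 7.34 in vehicle livers. Both overlapped in a few arrays, with 11 of 12 low PPH arrays above all vehicle arrays for Noc2l and 10 of 12 for Chpf2. The changes were 0.38 ± 0.07 (adjusted p = 0.0454) for Noc2l and 0.28 ± 0.05 (adjusted p = 0.0306) for Chpf2 (SE). Chpf2 has 3 probe sets, and with their mean in place of the brightest its change was 0.07 (adjusted p = 0.590).

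**Figure D1:**
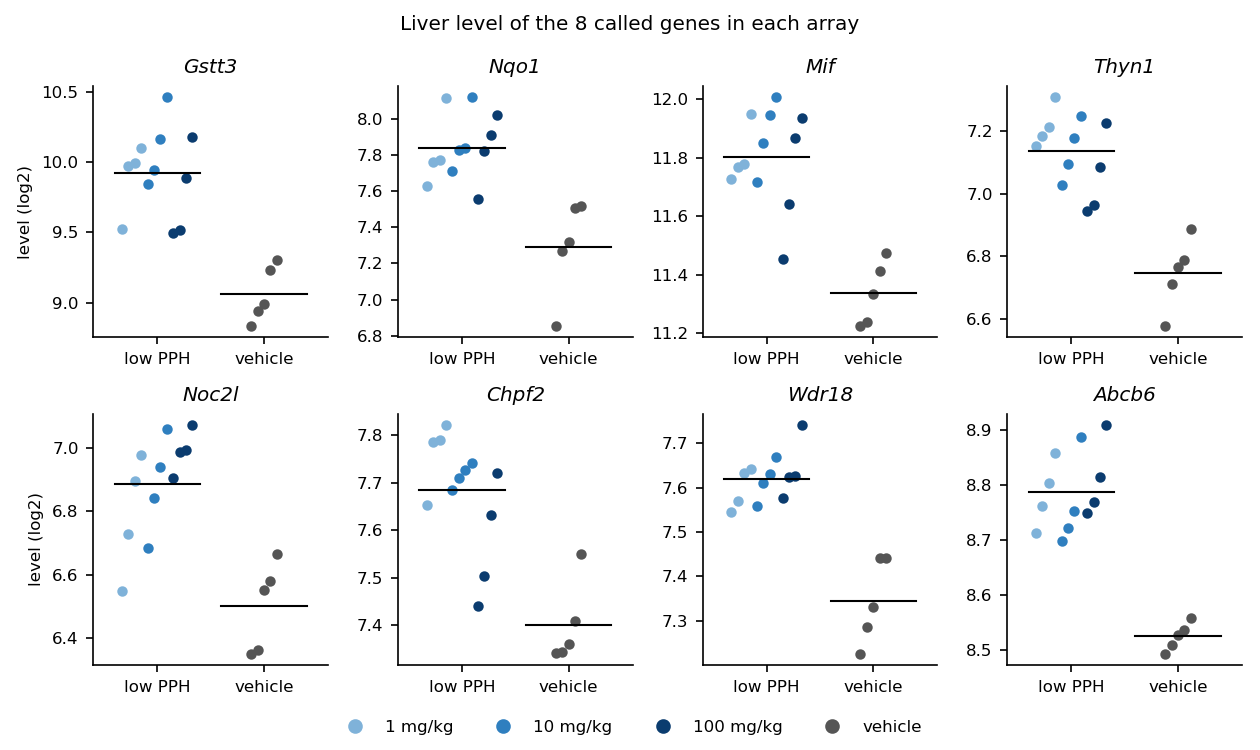
Log2 level of the 8 called genes (1 panel each) in the 12 low PPH livers, coloured by dose, and the 5 vehicle livers; each point is an array and the line is the mean, taken over the 3 dose groups for low PPH. For Gstt3, Nqo1, Thyn1, Wdr18 and Abcb6 all 12 low PPH points lie above all 5 vehicle points.

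Gstt3 was called in 17 of 17 fits that left out 1 array, where its change stayed between 0.81 and 0.93, whereas the other 7 genes were called in 5 to 9 of the 17. The count of 8 was decided by single arrays: it lay between 1 and 23 over those fits, and was 1 in 7 of them, each without 1 of 2 vehicle arrays, 1 array at 1 mg/kg, 2 at 10 mg/kg or 2 at 100 mg/kg. When all 81 liver arrays shared 1 fit it was 166, of which 142 were higher and 24 lower.

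Mif and Gstt3 lie near each other on chromosome 20. In the RefSeq table (GRCr8) 5 genes stand between them, 2 of which were tested: Gstt1 (0.22, adjusted p = 0.190) and Gstt2 (0.02, adjusted p = 0.921), both theta-class glutathione transferases. Ddt, a tautomerase of the same family as Mif and next to Gstt3 on the other side among the tested genes, was 0.17 higher (adjusted p = 0.0745). These neighbours were looked up after the values were seen, and neither they nor any other tested gene between Mif and Gstt3 passed the threshold.

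Taken dose by dose, the comparisons with vehicle used the fit of all 25 PPH liver arrays. They called 0 genes at 1 mg/kg, 1 at 10 mg/kg (0.00882% of the genes tested) and 0 at 100 mg/kg. With limma's unadjusted p under 0.05 the counts were 1202, 1140 and 1177 genes, or 10.6%, 10.1% and 10.4%. The gene called at 10 mg/kg was Gstt3, whose differences from vehicle were 0.84 at 1 mg/kg (adjusted p = 0.0988), 1.04 at 10 mg/kg (adjusted p = 0.00879) and 0.71 at 100 mg/kg (adjusted p = 0.191), each with an SE of 0.15. Nqo1 was 0.53, 0.58 and 0.53 above vehicle at 1, 10 and 100 mg/kg, and Wdr18 0.25, 0.27 and 0.30 above it. Without the 10 mg/kg group the pooled comparison called 0 genes, and Gstt3 was 0.77 higher (adjusted p = 0.0643). A test of any difference among the 3 low doses called 0 genes at an adjusted p under 0.05 and 365 at an unadjusted p under 0.05 (3.22%). That test does not show that the doses act alike, since 4 arrays a dose leave an SE of 0.15 on each change of Gstt3.

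Noc2l and Chpf2 ran in opposite orders over the low doses. Noc2l averaged 6.79, 6.88 and 6.99 at 1, 10 and 100 mg/kg, with a vehicle mean of 6.50, and Chpf2 averaged 7.76, 7.72 and 7.57, with a vehicle mean of 7.40. Neither order passed the test among doses (adjusted p = 1.00 for both).

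The 8 genes were followed to the higher doses. They were called on the low PPH arrays that the step below also uses, so the step is not independent of that choice. A step that is not called does not show a level that stays the same. Gstt3 averaged 10.34 ± 0.22 at 500 mg/kg and 10.94 ± 0.17 at 1000 mg/kg (SD, n = 4 each), with 9.92 in low PPH livers. The step between 1000 mg/kg and low PPH, which uses no vehicle array, was 1.02 ± 0.13 (SE, adjusted p = 0.000199). Nqo1 averaged 8.20 ± 0.13 and 8.62 ± 0.15 at 500 and 1000 mg/kg, and its step was 0.78 ± 0.11 (SE, adjusted p = 0.00059). The other 6 had no called step: it was -0.02 ± 0.09 for Mif, 0.06 ± 0.08 for Thyn1, -0.16 ± 0.08 for Noc2l, 0.00 ± 0.06 for Chpf2, -0.10 ± 0.05 for Wdr18 and 0.07 ± 0.05 for Abcb6 (SE, adjusted p between 0.477 and 0.991).

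**Figure D2:**
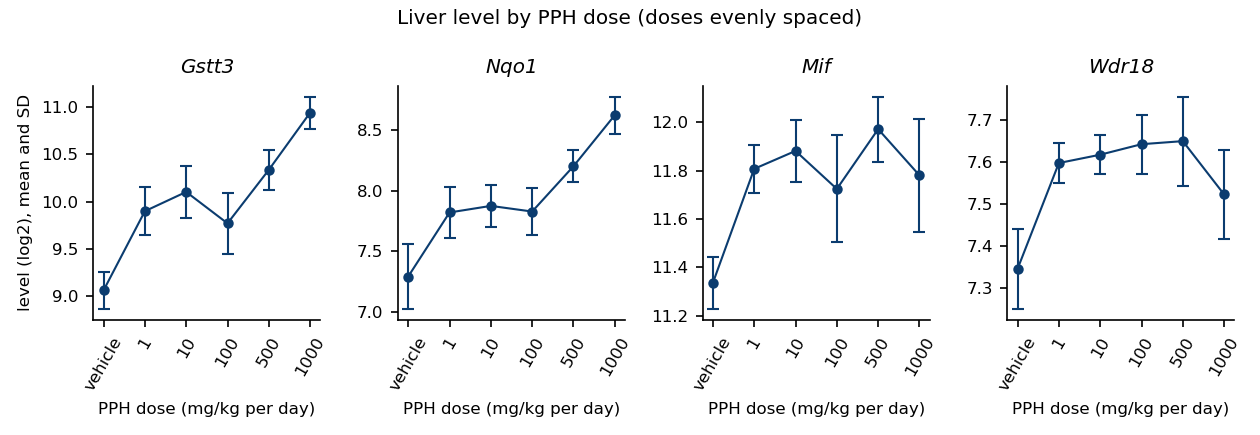
Liver level (log2) of Gstt3, Nqo1, Mif and Wdr18 against PPH dose in mg/kg per day, vehicle at the left; points are group means and bars SD (n = 5 for vehicle, 4 for each dose). Gstt3 and Nqo1 step up again at 500 and 1000 mg/kg, whereas Mif and Wdr18 stay near their level at 1 mg/kg.

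At 1000 mg/kg 199 genes passed the threshold against the same vehicle arrays (1.75% of the genes tested, with 1.22% higher and 0.538% lower), and 10 rose at 500 mg/kg (0.0882%). Because low PPH and 1000 mg/kg share those vehicle arrays, their changes are given side by side and not compared as independent. Gsta3, an alpha-class glutathione transferase, rose by 2.65 at 1000 mg/kg and was 0.79 higher in low PPH livers (adjusted p = 0.165). It lay between 7.00 and 8.62 in low PPH livers, with a median of 7.67, against 5.50, 7.35, 6.37, 7.12 and 7.53 in vehicle livers, where 2 vehicle arrays, at 5.50 and 6.37, stood below every low PPH array. Without the vehicle array at 5.50 the low PPH difference was 0.47. Abcc3, an efflux pump of conjugates, rose by 1.77 at 1000 mg/kg and was 0.23 higher in low PPH livers (adjusted p = 0.507). Ces2c, a carboxylesterase, rose by 1.28 at 1000 mg/kg and stood at -0.06 in low PPH livers (adjusted p = 0.893), and Sult2a6, a sulfotransferase, rose by 1.5 and stood at -0.08. The cell cycle genes Cdk1, Ccna2, Cdkn3 and Ccnd1 fell at 1000 mg/kg, with log2 changes of -1.98, -1.76, -2.16 and -1.62, and stood at -0.28, -0.12, -0.40 and -0.25 in low PPH livers (adjusted p between 0.615 and 0.921).

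The direct test of 1000 mg/kg against low PPH called 48 higher and 61 lower genes (0.961% of the genes tested, 0.423% and 0.538%), a count of 109 in all that was 22, 40 and 71 without 1 or another of 3 arrays at 1000 mg/kg. Besides Gstt3 and Nqo1 it named Gsta3 (1.86, adjusted p = 0.0012), Sult2a6, Abcc3, Ces2c and Igfbp1 among its largest rises, and Stac3, Cdk1, Ccna2, Lox and Ccnd1 among its largest falls. Igfbp1, a binding protein of insulin-like growth factor made by liver in fasting, was 1.25 higher at 1000 mg/kg than in low PPH livers.

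Of the 19 glutathione transferases tested, 1 was called in low PPH livers (Gstt3), beside 0.0705% of all genes. At an unadjusted p under 0.05, 8 were higher and 1 lower, where the background over all genes is 11.1% higher and 3.31% lower. Their median change was 0.11, beside 0.03 over all genes tested. Gstm5, of the mu class, was 0.36 higher (adjusted p = 0.102) and Gsto1, of the omega class, 0.14 higher (adjusted p = 0.165). At 1000 mg/kg 7 members rose (1.22% over all genes).

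Of 18 Nrf2 targets, 1 was called (Nqo1), beside 0.0705% of all genes. At an unadjusted p under 0.05, 5 were higher and 0 lower (11.1% and 3.31% over all genes). Their median change was 0.13 (0.03 over all genes). Gsr, glutathione reductase, which regenerates glutathione, had 7.77 to 8.19 in low PPH livers with a median of 8.04, against 7.55, 7.68, 7.60, 7.39 and 7.72 in vehicle livers. All 12 low PPH arrays were above all vehicle arrays, and the change of 0.43 ± 0.10 (SE) missed the threshold at an adjusted p of 0.061. Tkt, transketolase of the pentose phosphate pathway, was 0.26 higher (adjusted p = 0.115). At 1000 mg/kg 6 members rose and 1 fell (1.22% and 0.538% over all genes).

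The 20 genes of cholesterol synthesis had 0 calls in low PPH livers, with 18 of 20 higher (61.2% over all genes tested), 4 of them at an unadjusted p under 0.05 (11.1% over all genes), and a median change of 0.20 (0.03 over all genes). Pmvk, Tm7sf2 and Mvk, enzymes of the pathway, were 0.40, 0.29 and 0.24 higher (adjusted p = 0.149, 0.182 and 0.233). The median change was 0.22, 0.19 and 0.17 at 1, 10 and 100 mg/kg and 0.69 at 1000 mg/kg, where 13 of the 20 rose (1.22% over all genes). The 18 CAR and PXR targets had a median of 0.01 in low PPH livers, with 10 higher and 8 lower. Of them 1 had an unadjusted p under 0.05 (Cyp3a23-3a1, 0.32, adjusted p = 0.178). At 1000 mg/kg 6 of them rose and 1 fell (1.22% and 0.538% over all genes). The 18 growth hormone and male-biased genes had a median of -0.05, with 14 of 18 lower (38.8% over all genes).

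**Figure D3:**
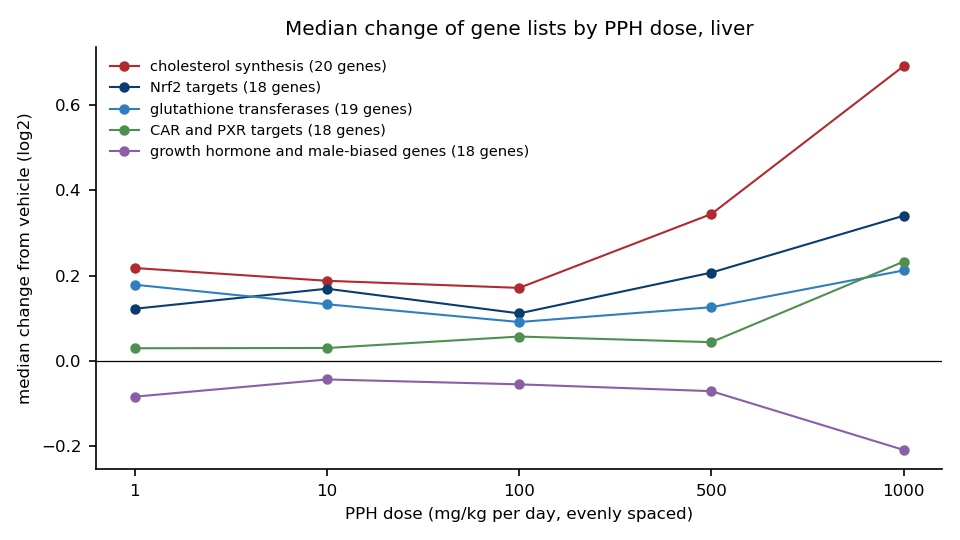
Median log2 change from vehicle of 5 gene lists (lines) at each PPH dose in mg/kg per day; the number of genes tested is in the legend and all doses share the 5 vehicle livers. Cholesterol synthesis sits near 0.2 at 1, 10 and 100 mg/kg and at 0.69 at 1000 mg/kg, and CAR and PXR targets stay near 0 up to 500 mg/kg.

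Among the remaining lists, 0 members were called. Hspe1, the mitochondrial co-chaperonin, had 12.13 to 12.43 in low PPH livers with a median of 12.22, against 11.96, 11.99, 11.99, 11.92 and 12.10 in vehicle livers. Its groups did not overlap, and its change of 0.27 had an adjusted p of 0.061. The low PPH mean of Hspe1, 12.26, lay between the vehicle means of the MCHM set (12.38) and the crude MCHM set (12.14). Its partner Hspd1 was 0.20 higher (adjusted p = 0.112) and the small heat shock protein Hspb1 0.44 higher (adjusted p = 0.297). Of 25 interferon response genes 21 were higher and 4 lower, with a median of 0.07, where 61.2% of all genes tested were higher and their median was 0.03. The list averaged 6.87 to 7.45 per low PPH array. Of all genes with levels of 6.70 to 7.22, 69.2% were higher, and of those at 7.22 to 7.76, 73.3%. Of 20 genes of the unfolded protein and amino acid response 15 were lower, where 38.8% of all genes were, among them Herpud1 (-0.44, adjusted p = 0.0927), a protein of endoplasmic reticulum degradation. Fatty acid oxidation (27 genes) and bile acid (14 genes) had medians of 0.00 and -0.02.

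The genes next to the threshold had changes as large as some called ones. Ndufa5, a subunit of respiratory complex I, was 0.27 higher and Nicn1, a nuclear and tubulin-linked protein, 0.29 higher (adjusted p = 0.061 each), whereas called Wdr18 changed by 0.27. The low PPH mean of Ndufa5 was 9.64, with vehicle means of 9.79 in the MCHM set and 9.51 in the crude MCHM set. For Nicn1 these were 7.29, 7.40 and 7.26. Gsr went the other way, at 8.02 in low PPH livers and above both vehicle means (7.44 and 7.83). No gene fell at the threshold. Of the 10 lower genes with the smallest p, several lay near or below the low-value floor of 4.69. Vsig10l (-0.33), Treml1 (-0.44), Zic4 (-0.38), Cacna1c (-0.40) and Galr2 (-0.35) had low PPH means of 4.32 to 4.94. Those of Zic4, Cacna1c and Galr2 were below the floor, at 4.58, 4.51 and 4.32. Galr2 was below it in all 12 low PPH arrays (4.18 to 4.52) and passed the filter only through other arrays. Klhl13 (-0.31) averaged 6.37 in low PPH livers and 6.69 in vehicle livers. All of these lower genes had an adjusted p of 0.061. Agxt2, a mitochondrial aminotransferase of liver and kidney, averaged 10.40 in low PPH livers and 10.61 in vehicle livers (-0.20, adjusted p = 0.0745).

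The circadian clock list had 0 called genes of 15, but 8 of its members had an unadjusted p under 0.05, 5 higher and 3 lower, where 11.1% of all genes tested were higher and 3.31% lower at that p. The clock is a loop in which Bmal1 and Npas2 or Clock turn on genes that feed back on them, among them the repressors Nr1d1 and Nr1d2 and the output factor Dbp, which peak at another time of day than Bmal1. Npas2 was 0.43 higher, Bmal1 0.55 higher and Cry1 0.72 higher in low PPH livers (adjusted p between 0.159 and 0.182). Nr1d1, Nr1d2 and Dbp, chosen for naming after their values were seen, were lower by -1.11, -0.91 and -1.02 (adjusted p between 0.194 and 0.265).

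Bmal1 lay between 7.16 and 7.89 in low PPH livers, with a median of 7.63, against 7.16, 7.48, 7.65, 6.79 and 5.96 in vehicle livers. Dbp lay between 4.11 and 5.87 in low PPH livers, with a median of 4.96, against 5.73, 5.38, 4.42, 6.73 and 8.17 in vehicle livers. The groups overlapped in both, and the same vehicle liver had the lowest Bmal1 and the highest Dbp. Without that liver the differences were 0.29 for Bmal1, 0.26 for Npas2 and -0.50 for Dbp. In the kidneys of the PPH set Bmal1 was 0.68 higher and Dbp lower by -1.05 (adjusted p = 0.465 and 0.551). The vehicle kidney lowest in Bmal1 (4.55, the others 5.47 to 6.22) carried the same number as the vehicle liver lowest in Bmal1. The kidney differences without it were not computed. The livers at low MCHM had the other sign against their own vehicle, with Dbp at 1.18 and Bmal1 at -0.27 (adjusted p = 0.762 and 0.878), whereas those at low crude MCHM had the sign of PPH, with Dbp at -0.29 and Bmal1 at 0.17 (adjusted p = 0.981 and 0.964). Dosing was in the morning, per the labels, and the hour at which tissues were taken is not given in the sources used here. The part of time of day in the 8 called genes was not tested.

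**Figure D4:**
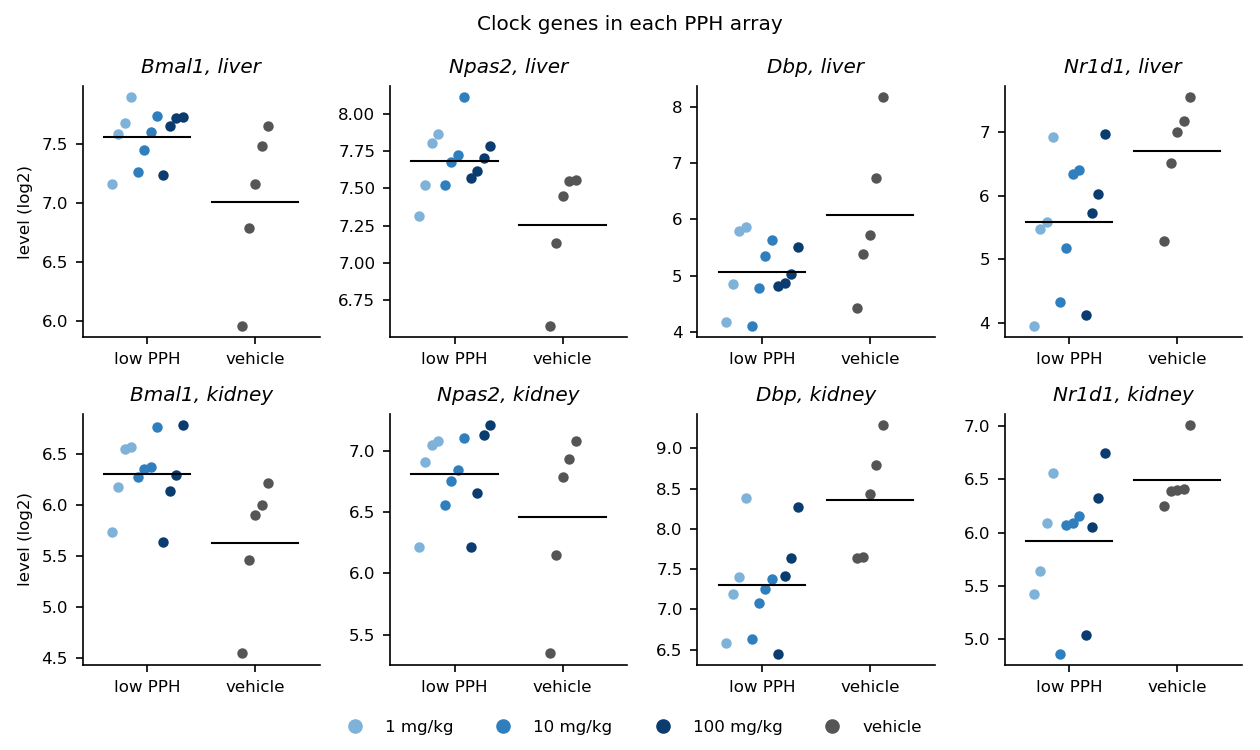
Log2 level of Bmal1, Npas2, Dbp and Nr1d1 in liver (top) and kidney (bottom) of the PPH set; each point is an array, low PPH left and vehicle right, and lines are means. Low PPH arrays tend to be higher in Bmal1 and Npas2 and lower in Dbp and Nr1d1 in both tissues, with overlap, and no gene shown passed the threshold.

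Whether the low-dose changes belong to PPH was asked with the same doses of MCHM and crude MCHM, each against its own vehicle. Low MCHM and low crude MCHM called 0 genes each, with 683 (5.88%) and 650 (5.59%) genes at an unadjusted p under 0.05 in limma. The low PPH change exceeded the low MCHM change in 14 genes and fell short of it in 0 (0.12% of 11624 genes tested in the fit of all liver arrays), a count that moved by over 1.5 times in 26 of the 34 fits that left out 1 array and lay between 3 and 42. Tubb2a, a tubulin, had a difference of 0.88 ± 0.17 (SE, adjusted p = 0.0148), made of a low PPH change of 0.56 and a low MCHM change of -0.32. Mif had a difference of 0.62 ± 0.11 (SE, adjusted p = 0.00552), made of 0.47 and -0.15. Tjp3, a tight junction protein, Mocs2, of molybdenum cofactor synthesis, and Nme1, a nucleoside diphosphate kinase, differed by 0.68, 0.51 and 0.46 (adjusted p = 0.0499 each). Low PPH and low MCHM means were 6.48 and 6.29 for Tjp3, 9.96 and 9.86 for Mocs2 and 8.70 and 8.81 for Nme1. Their PPH and MCHM vehicle means were 6.17 and 6.65, 9.67 and 10.09, and 8.36 and 8.94. Gstt3 and Nqo1 differed by 0.83 and 0.50 without passing the threshold (adjusted p = 0.125 and 0.272). Against low crude MCHM 0 genes differed at the adjusted threshold, with 814 at an unadjusted p under 0.05 in limma, and the difference for Gstt3 was 0.64 (adjusted p = 0.612).

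The vehicle livers of the 3 sets did not share a level. The PPH vehicle differed from the mean of the other 2 vehicles in 1202 genes (10.3% of 11624), 639 higher and 563 lower. Low PPH differed from the same mean in 2782 genes (23.9%), 2103 higher (18.1%) and 679 lower (5.84%). Of the 8 genes called in low PPH livers, Mif, Thyn1, Chpf2 and Wdr18 were lower in the PPH vehicle than in that mean. The gaps were -0.46, -0.31, -0.31 and -0.30 (adjusted p between 6.8e-05 and 0.00209). Their low PPH levels stood within 0.09 of that mean (adjusted p between 0.279 and 0.929), but not always of each vehicle. Thyn1 had 7.14 in low PPH livers, with vehicle means of 7.20 in the MCHM set and 6.90 in the crude MCHM set. Chpf2 had 7.68, with vehicle means of 7.84 and 7.59. Gstt3, Nqo1, Noc2l and Abcb6 were in low PPH livers above the same mean, as were 18.1% of all genes. The gaps were 0.45, 0.30, 0.25 and 0.22 (adjusted p = 0.0133, 0.0291, 0.0125 and 0.000725). Noc2l had 6.89 in low PPH livers, with vehicle means of 6.79 in the MCHM set and 6.49 in the crude MCHM set. Gstt3 had 9.92 in low PPH livers and 9.06 in PPH vehicle livers, with vehicle means of 9.50 in the MCHM set and 9.44 in the crude MCHM set. Chemical and set cannot be told apart between sets, since each set had its own vehicle and chemical.

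**Figure D5:**
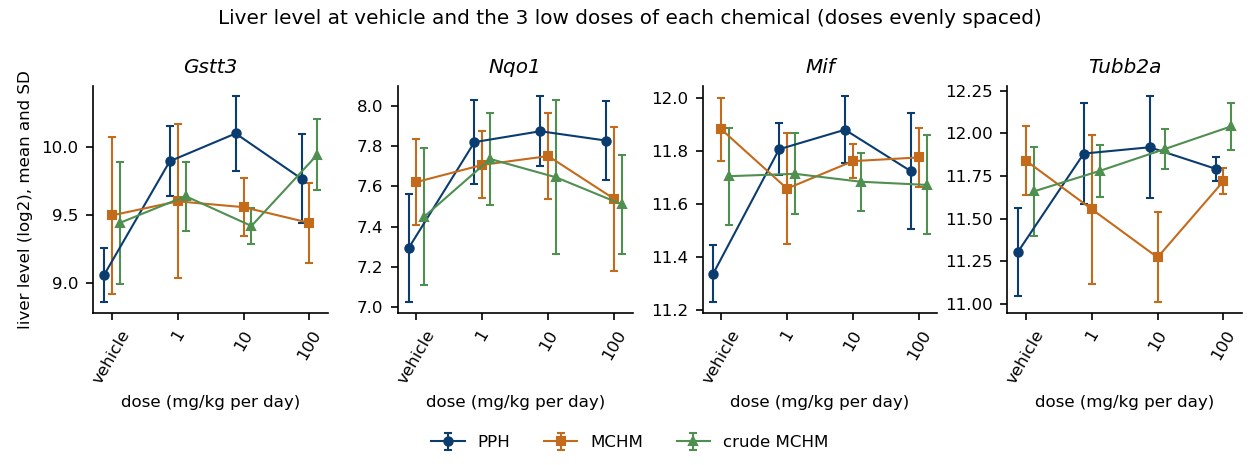
Liver level (log2) of Gstt3, Nqo1, Mif and Tubb2a at vehicle, 1, 10 and 100 mg/kg per day in the PPH, MCHM and crude MCHM sets; points are group means and bars SD (n = 4 or 5). The PPH vehicle group is the lowest of the 3 vehicle groups in each panel, and for Mif the 3 PPH doses lie close to the other sets' means.

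In kidneys of the PPH set 2 genes fell in low PPH against vehicle and 0 rose (0.0176% of 11342). Those 11342 genes were the ones that passed the floor in PPH liver arrays, so genes seen only in kidney were not tested. They were Lect2, a secreted chemokine-like protein, at -0.47 (adjusted p = 0.00531), and Slc2a2, a glucose transporter, at -0.44 (adjusted p = 0.0359). The low PPH change was larger in liver than in kidney for 2 genes and smaller for 0 (0.0176%). That count lay between 0 and 12 with 1 array left out and moved by over 1.5 times in 22 of those fits. It was 29 with the sample number as a block, though the labels do not say that 1 number is 1 animal. The values below are without the block. For Gstt3 the change was 0.86 in liver and 0.15 in kidney, a difference of 0.72 ± 0.14 (SE, adjusted p = 0.0415). Kidney Gstt3 averaged 11.59, 11.60 and 11.62 at 1, 10 and 100 mg/kg, with 11.46 in vehicle kidneys. For Noc2l the change was 0.38 in liver and -0.09 in kidney, a difference of 0.47 ± 0.09 (SE, adjusted p = 0.0415). Nqo1 differed between tissues by 0.34 and Mif by 0.36, which did not pass (adjusted p = 0.408 and 0.158).

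Some measures that are not responses of single genes also moved with dose group. Of the genes tested 61.2% were higher in low PPH livers, with a median change of 0.03, and the share differed with the level: with the genes split into 10 groups by level, 35.9% were higher in group 1, the lowest, 76.0% in group 7 and 60.4% in group 10, the highest. The 61.2% and 38.8% given beside the lists are over all genes and are not matched to the level of each list. The interquartile range of all probe sets averaged 3.41 in low PPH arrays (3.29 to 3.50) and 3.32 in vehicle arrays (3.23 to 3.45). With that range as a covariate, an alternative added after seeing the data, 0 genes were called, and the change of Gstt3 was 0.77 (adjusted p = 0.129) and that of Nqo1 0.54 (adjusted p = 0.178). The 3′ minus 5′ signal of actin, a mark of RNA breakdown, was 1.06 to 1.44 in low PPH arrays and 1.11 to 1.27 in vehicle arrays, and that of Gapdh was 0.035 to 0.189 (mean 0.11) in low PPH arrays and 0.005 to 0.128 (mean 0.05) in vehicle arrays. The part of RNA quality in the called genes was not tested.

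Cell type markers gave no called gene. Of 10 macrophage markers 9 were lower in low PPH livers (38.8% over all genes), with a median of -0.10 and a mean level per array of 8.79 to 9.28, against 9.06 to 9.39 in vehicle livers. Cd5l, a secreted protein of liver macrophages, was the lowest at -0.40 (adjusted p = 0.143). All 5 cholangiocyte markers tested of 9 listed were higher (61.2% over all genes), with Anxa4 at 0.23 (adjusted p = 0.102). In whole liver, fewer cells of a type and less RNA per cell cannot be told apart, and the part of these cells in the called genes was not tested.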

How the data were processed

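RNA of liver and kidney was hybridised to Affymetrix Rat Genome 230 2.0 arrays, 1 per tissue sample. The deposited log2 values were made by the authors with RMA, per the submitters' processing notes; its version and whether sets were processed together are not given in the sources used here. Of 31099 probe sets 20832 carried 1 symbol in GEO's annotation, 436 several and 9831 none, and each gene was read from its brightest probe set over liver arrays. Genes above the 40th percentile of liver values (4.69) in at least 3 arrays of a fit were tested with limma 3.58.1 in R 4.3.3 (lmFit, eBayes, two-sided, Benjamini-Hochberg over all genes tested, threshold 0.05). The kidney and the liver against kidney results were the exception: they used the genes that passed in the PPH liver arrays. The 25 PPH liver arrays shared 1 fit; differences between chemicals used all 81 liver arrays, and liver against kidney the PPH arrays of both tissues. Called genes were named, with the 10 smallest p per direction, up to 3 members per list, the 8 largest rises and 4 largest falls at 1000 mg/kg and the 5 largest differences. Members and lists were chosen with earlier results of these data known. The lists are counted, not tested. On simulated data with this layout (11342 genes, 50 changed at each size), 32% of changes of 0.25, 84% of 0.5 and 96% of 1 were recovered. There 15 of 11142 unchanged genes were called, beside 16, 42, 48 and 48 changed genes at 0.25, 0.5, 0.75 and 1. Many called genes loosen the Benjamini-Hochberg cutoff. The real comparison called 8, so its recovery of small changes may be lower. The simulated noise was drawn separately for each gene, without shifts shared over an array, so recovery in the real arrays may differ. The number of arrays limits the precision. Alternatives were the filter, probe set rule, normalization, array weights, arrays in the fit, doses pooled and arrays left out.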

Additional observations from a re-analysis of the deposited data

Results flagged for a closer look

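By a test of the difference itself (limma), the low PPH response differed from the low MCHM response in 14 genes, of which the 5 largest are given here, and between liver and kidney in 2. Against low MCHM the differences were 0.8834 for Tubb2a, 0.6776 for Tjp3, 0.6189 for Mif, 0.5115 for Mocs2 and 0.4619 for Nme1. In each the low PPH change was above 0 and the low MCHM change below 0. In each the PPH vehicle mean was also below the MCHM vehicle mean, at 11.30 and 11.84 for Tubb2a and 11.34 and 11.88 for Mif. Liver minus kidney was 0.7162 for Gstt3 and 0.4684 for Noc2l.

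A single array stood far from the others of its group in 13 of 348 groups of values checked over 87 genes. That share is below the 5% or so that chance gives, so the values are listed and not read as findings. At 100 mg/kg the arrays apart (3 different ones over these genes) had 7.206 for Acsm2 and 8.863 for Nme1, both high, and 5.992 for Adh7, 7.235 for Bmal1, 12.23 for Cyp3a23-3a1, 7.393 for Hlf and 12.2 for Hspd1, all low. At 10 mg/kg the value apart was 7.425 for Bhlhe40, low, and 11.94 for Cox5b, high, and at 1 mg/kg 12.33 for Crp and 10.23 for Mocs2, both high. Among vehicle livers 1 array had 4.998 for Ccna2 and 13.5 for Itih4, both high. Adh7, Cyp3a23-3a1 and Hlf were low in the same array at 100 mg/kg.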

How the results depend on the processing

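The count of 8 in low PPH against vehicle was 1 without the filter, 1 after another quantile normalization, 166 with all liver arrays in 1 fit, 3 with the 17 arrays alone, 1 without the 1 mg/kg group and 0 without the 10 mg/kg group, and was within 1.5 times with the mean of probe sets (7), array weights (6) and without the 100 mg/kg group (9). With the array interquartile range as a covariate, added after seeing the data, it was 0, as was the count at 10 mg/kg. The single array left out gave 1 to 23. Gstt3 was called in 8 of the 10 other settings, and its change lay between 0.77 and 0.94 over all 10. With all liver arrays in 1 fit the counts were 8 at 1 mg/kg, 5 at 10 mg/kg and the share called for 1000 mg/kg minus low PPH was 1.9%, against 0.961%. That share was 0.563% without the filter. The count against low MCHM was 5 without the filter, 5 after another normalization and 37 with array weights. Liver minus kidney gave 0 without the filter, 5 with the mean of probe sets, 0 after another normalization, 6 with array weights and 29 with the replicate block. Liver and kidney arrays with 1 number share only that number in the labels: their deviations correlated at 0.034 to 0.246 over 22 pairs, 18 of them above 0.1, and 17 of 22 livers correlated best with their own number. Low PPH and vehicle livers share no number, so they could not be paired. With 1 array left out the counts lay between 0 and 1 at 1 mg/kg, 0 and 3 at 10 mg/kg, 0 and 1 at 100 mg/kg, 0 and 1 among doses, 3 and 42 against MCHM, 0 and 1 against crude MCHM and 0 and 12 for liver minus kidney, and the share for 1000 mg/kg minus low PPH between 0.194% and 1.03%. No direction reversed in the genes and settings run. The causes were not tested. Genes under the low-value floor were not tested.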
